A study of Arabidopsis thaliana with 21 samples.

Results

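The genes described here encode proteins of the cytosolic ribosome, which makes the proteins encoded in the plant nucleus. They are 44 loci taken by their Arabidopsis identifiers from the 21156 loci in the deposited expression table. The rule for taking them used no measured value, but earlier results of these data were known when it was set. The RefSeq annotation TAIR10.1 gives each a ribosomal protein product or family, 29 in the large subunit and 15 in the small subunit. They stand for 24 different proteins, and 16 of these proteins are encoded by more than 1 of the loci. All 44 had values in all 21 libraries and passed the filter on low values. A further 63 annotated cytosolic ribosomal protein genes of the table, which are outside the 44, served for comparison. They were picked by product name and are not all the remaining genes of this kind. No L11 gene, for example, is among them.

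PolyA RNA was measured by sequencing in leaves cut from 35-day-old F1 hybrids of the accessions Col-0 and Ler. Solutions were drawn up through the petiole, and the labels give 7 groups of 3 libraries. These were PAP with ATP and LiCl, PAP with LiCl, PAP with ATP, LiCl at 100 mM, ATP at 1 mM, PAP at 100 µM, and a control fed the infiltration buffer (PIPES, citrate, KCl and sucrose) that the other solutions were made in. PAP, 3'-phosphoadenosine 5'-phosphate, is a chloroplast stress signal that the phosphatase SAL1 degrades and that inhibits XRN exoribonucleases, and lithium inhibits SAL1. The treatment notes give the PAP dose in other words than the labels, so the dose is uncertain, and the feeding time is not given in the sources used here. No group received ATP with LiCl but without PAP. The sources do not say that the libraries of a group came from separate plants, so p-values measure the spread between these libraries, which may be technical.

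Each cytosolic ribosome holds a large and a small subunit, and their proteins are needed in fixed proportions. In plants nearly every ribosomal protein is encoded by a small family of near-identical genes, and the copies can be used at different levels. Expression of these genes follows growth, sugar and energy status, largely through the TOR kinase, and their promoters are known for the telo box and the site II element, which is bound by TCP factors.

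Depth was even, with 19190821 to 27155547 reads assigned to genes per library (median 23657548). Values are in CPM, counts scaled to the reads assigned to genes in the library. Libraries are numbered by column of the table, from 1 to 3 in the control to 19 to 21 in PAP with ATP and LiCl. All 6 leaf mesophyll markers had values in every group, with a summed level of 22321 to 43681 CPM, and neither of the 2 pollen markers had values in any group. In bulk leaf RNA, fewer cells of a type and less RNA per cell cannot be told apart.

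In control leaves, SAG24 (AT1G66580), an L10 copy named as a senescence-associated gene, had the highest mean level per length, 183 CPM per kb of exon. It was followed by its L10 paralogue SAC52 with 158, the S8 gene AT5G20290 with 158, the L3 gene RPL3A with 140 and the L8 gene EMB2296 with 134 CPM per kb. The first place of SAG24 rests on control library 1, where it had 267 CPM per kb, against 152 and 129 CPM per kb in control libraries 2 and 3. Without library 1 it was the fourth, with 141 CPM per kb, after AT5G20290, SAC52 and RPL3A with 155, 150.5 and 149.6 CPM per kb. At the bottom were the P0 copy AT3G11250 with 10.6, the L10 copy RPL10B with 5.44, the L11 copy RPL16A with 4.63, the SA copy RPSAb with 2.54 and the P0 copy AT2G40010 with 1.03 CPM per kb. Each of these low copies other than RPL16A, whose paralogues are outside the 44, stood beside a far more abundant copy of its own protein.

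The 44 genes together made up 2328, 2912 and 3634 CPM in the PAP with ATP and LiCl libraries, 3164, 2923 and 3697 CPM in PAP with LiCl, and 2646, 3936 and 3123 CPM in PAP with ATP. The sums were 3964, 3106 and 3542 CPM in LiCl, 3288, 3124 and 5725 CPM in ATP, 4662, 6248 and 4937 CPM in PAP, and 4349, 3517 and 3886 CPM in the control. All 3 PAP libraries lay above all 3 control libraries and above every library of the other groups except ATP library 6. That ATP library stood far above the other two of its group, and it was the highest of its group for 42 of the 44 genes. PAP library 8 was the highest of all 21 libraries for 33 genes, and library 19, the first of PAP with ATP and LiCl, was the lowest of its group for 43.

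**Figure D1:**
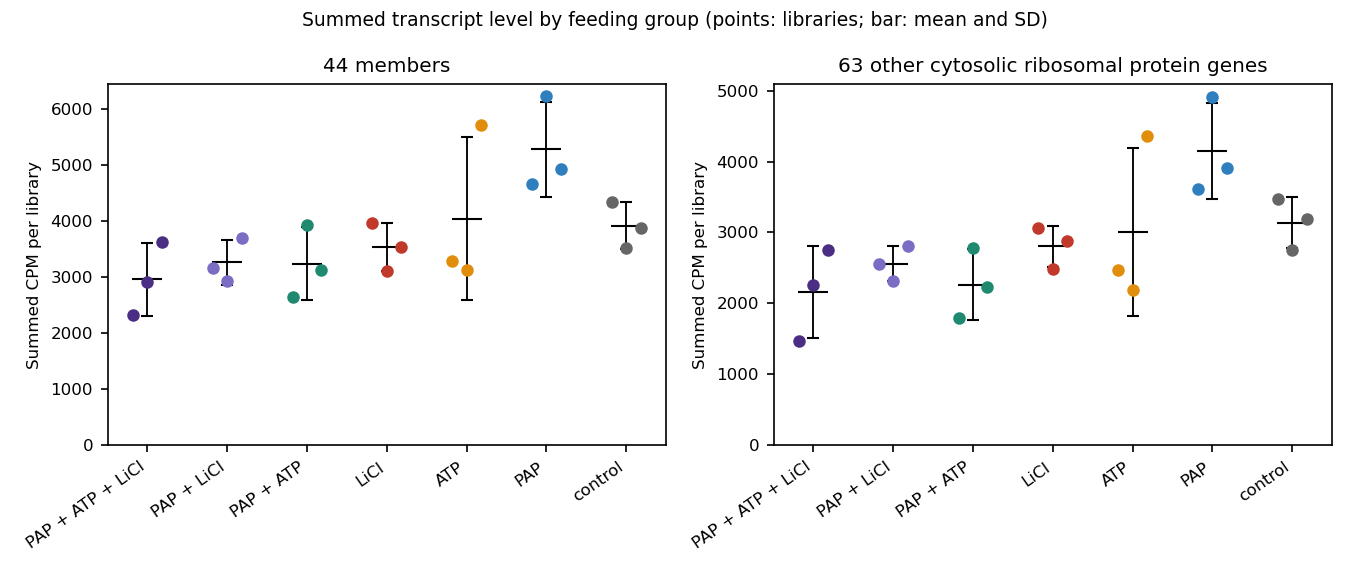
Summed level of the 44 genes in each library (left) and of the 63 other cytosolic ribosomal protein genes (right), in CPM, with libraries as points and the mean and SD of each group as bar and whiskers (n = 3). On the left the mean was 2958 ± 654 CPM in PAP with ATP and LiCl, 5282 ± 847 CPM in PAP and 3917 ± 417 CPM in the control.

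Markers of dividing cells ran in the same order at these extremes, but not in all libraries. The summed level of all 7 dividing-cell markers, each with values in every group, was 29.5 CPM in PAP library 8. It was 24.6 CPM in ATP library 6, and these were the highest of all libraries. The lowest was 3.89 CPM in library 19. The ribosomal protein genes described here summed to 4937 CPM in PAP library 9 and 4349 CPM in control library 1. The dividing-cell markers had only 6.78 and 6.29 CPM in these libraries. By group the range was 3.89 to 18.4 CPM in PAP with ATP and LiCl, 8.75 to 13.9 CPM in PAP with LiCl, 5.67 to 9.30 CPM in PAP with ATP, 6.88 to 12.3 CPM in LiCl, 6.86 to 24.6 CPM in ATP, 6.78 to 29.5 CPM in PAP and 6.29 to 17.9 CPM in the control. The summed level of 4 vascular markers was 568 to 588 CPM in PAP with ATP and LiCl, 559 to 671 CPM in PAP with LiCl, 475 to 593 CPM in PAP with ATP, 486 to 628 CPM in LiCl and 384 to 460 CPM in ATP. It was 222 to 363 CPM in PAP and 192 to 466 CPM in the control. The part of either cell type in the results below was not tested.

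Over all 7 groups, 19 of the 44 genes (43.2%) differed by limma's F test with Benjamini-Hochberg adjustment, beside 35.6% of the 17440 genes with values in every group. The count was 10 without PAP library 8 or 9, 11 without library 20 and 12 without PAP library 7, and DESeq2 called 30. These further counts have no share over all genes beside them. The order of the group means was much the same from gene to gene. The mean was highest in PAP for 42 genes, and the exceptions were SAG24, highest in ATP, and AT2G40010, highest in LiCl. It was lowest in PAP with ATP and LiCl for 30 genes, in PAP with ATP for 11, in LiCl for 2 and in ATP for 1.

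**Figure D2:**
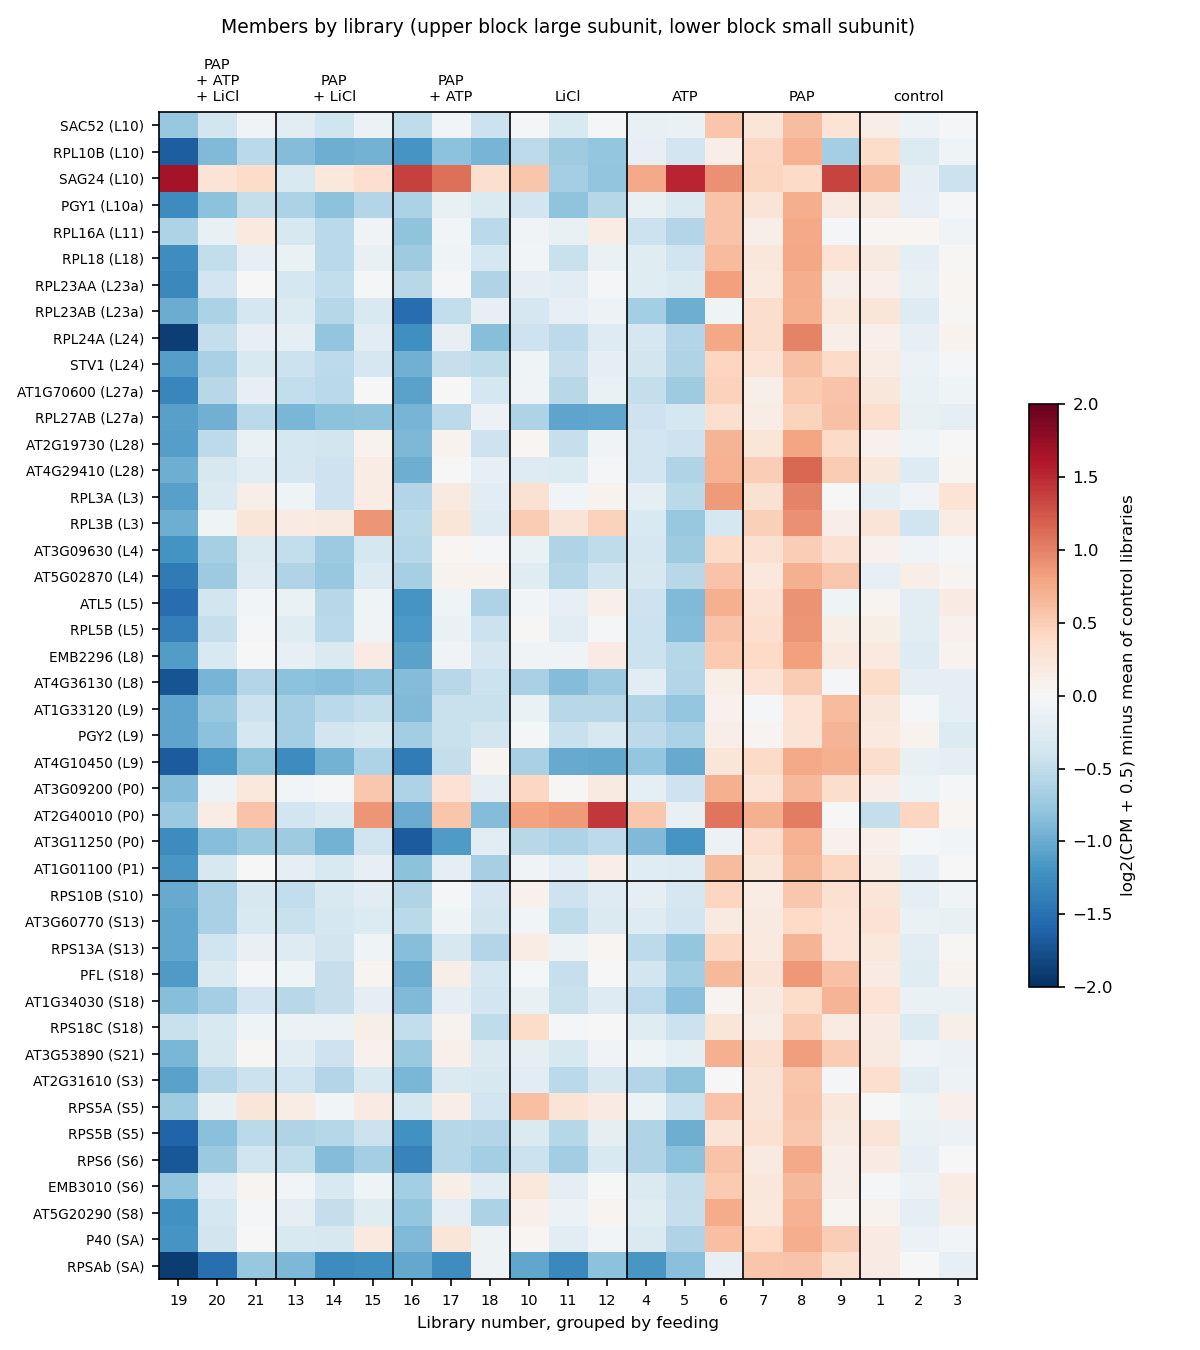
Level of each of the 44 genes in the 21 libraries, as the difference of log2(CPM + 0.5) from the gene's mean in the control libraries (colour), with libraries grouped by treatment, large-subunit genes above and small-subunit genes below. PAP library 8 holds the highest value for 33 genes, and SAG24 does not follow the order of the other rows.

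PAP feeding by itself was compared with buffer to ask whether the signal moved these genes. None of the 44 passed the threshold, an adjusted p under 0.05 by limma, and 0% of all genes did. One gene, the L28 copy AT4G29410, had an unadjusted p under 0.05, with a log2 difference of 0.72 and an adjusted p of 0.984, and edgeR and DESeq2 also called 0 of the 44. Of all genes, 4.8% had an unadjusted p under 0.05. Every one of the 44 log2 differences was above 0, from 0.14 to 0.72 with a median of 0.40, while the median over all genes was -0.05. The genes moved together within libraries, and PAP library 8 was the highest of its group for 38 of them. Counts of signs and of separated genes, here and in the comparisons below, are therefore not counts of independent observations. In 18 genes all 3 PAP libraries lay above all 3 controls, which held for 2.72% of all genes. The half-width of the 95% interval of a single gene's difference was typically 0.59, so differences of this size were not detectable gene by gene. Without ATP library 6 and PAP library 8 the median was 0.27.

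The same compound showed no such shift in leaves that also received LiCl or ATP. PAP with LiCl against LiCl gave a median of -0.13 (all genes -0.06), and PAP with ATP against ATP gave -0.29 (all genes 0.11). Over the 3 backgrounds pooled the median was -0.01. In each of these 3 comparisons limma, edgeR and DESeq2 called 0 of the 44 genes, and limma called 0% of all genes. Unadjusted p-values under 0.05 were found for 2 of the 44 (4.55%) in PAP with ATP against ATP, beside 10.7% of all genes. They were found for 0 in PAP with LiCl against LiCl (0.738% of all genes) and in the pooled comparison (1.84%). The negative sign in the ATP background was not stable, since the median became 0.04 with library weights.

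LiCl was compared with its matching group without LiCl in 3 backgrounds. In otherwise untreated leaves, 2 genes were lower and none higher, or 4.55% of the 44, below the 17.6% of all genes called in either direction and the 10.4% called lower. The 2 genes were RPSAb (AT3G04770), a minor copy of the small-subunit protein SA, and RPL27AB (AT1G23290), a copy of the large-subunit protein L27a. RPSAb had 1.56, 1.22 and 1.88 CPM in LiCl leaves, against 4.24, 3.70 and 3.28 CPM in control leaves. The groups did not overlap, and the log2 difference was -1.05 (SE 0.33), a 2.07-fold lower level with an adjusted p of 0.0338 by limma. RPL27AB had 47.1, 34.4 and 34.8 CPM in LiCl leaves, against 90.7, 64.8 and 63.9 CPM in control leaves. Here too every LiCl library was below every control library (log2 difference -0.90, SE 0.24, adjusted p = 0.0160). The median of the 44 was -0.20 (all genes -0.03), 13 genes had all 3 LiCl libraries below the controls (19.1% of all genes did) and 3 had them all above (14.1% of all genes). The largest difference above 0 was that of AT2G40010, the least abundant P0 copy, with 2.91, 3.03 and 4.74 CPM in LiCl leaves, against 0.905, 2.15 and 1.52 CPM in control leaves (log2 difference 1.02, adjusted p = 0.146 by limma), which did not pass. The count was 0 without control library 1 or LiCl library 11 or 12 and 1 without control library 2 or LiCl library 10, and DESeq2 called 5. Over all genes, limma called 3102 with every library. It called 1754, 1785 and 1756 without control library 1, LiCl library 11 or LiCl library 12, and DESeq2 called 4225.

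In PAP-fed leaves the same salt went with lower levels throughout. PAP with LiCl against PAP called 18 of the 44 genes lower (40.9%) and none higher, beside 21.6% of all genes in either direction and 12% lower. All 44 log2 differences were below 0, from -1.61 to -0.10, with a median of -0.71 (all genes -0.02). In 40 genes the 3 PAP with LiCl libraries were all below the 3 PAP libraries, beside 21.7% of all genes. The called genes were 12 of the 29 large-subunit and 6 of the 15 small-subunit genes. The count was 7 without library 14, 8 without library 8 or 13, 10 without library 9, 11 without library 7 and 11 without libraries 6 and 8 together, and all of these calls were lower. Over all genes, 3811 were called with every library, 2821 without library 14 and 3259 without library 8.

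The 8 largest falls in that comparison covered both subunits. RPSAb had 1.78, 1.27 and 1.29 CPM in PAP with LiCl, against 5.71, 5.73 and 4.79 CPM in PAP, a 3.05-fold lower level (log2 difference -1.61, adjusted p = 0.00216). AT4G10450, the least abundant of 3 copies of the large-subunit protein L9, had 7.33, 9.17 and 11.7 CPM in PAP with LiCl, against 23.9, 31.3 and 30.2 CPM in PAP, 2.96-fold lower (adjusted p = 0.00441). Both pairs of groups were clearly separated. RPL27AB fell 2.35-fold, with 37.96, 40.6 and 41.3 CPM in PAP with LiCl and 79.8, 98.2 and 108 CPM in PAP (adjusted p = 0.00166). The other falls of this size were RPL10B, a minor L10 copy, by 1.07 on the log2 scale, AT4G36130, an L8 copy, by 1.07, PGY1, which encodes L10a and is known for a role in leaf polarity, by 1.07, AT3G11250, a copy of the stalk protein P0, by 1.05, and RPS6, a copy of S6, the target of S6 kinase, by 1.03.

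With ATP present, LiCl made no detectable difference to these genes. PAP with ATP and LiCl against PAP with ATP called 0 of the 44 by limma, edgeR and DESeq2, and 9.44% of all genes were called. None of the 44 had an unadjusted p under 0.05, beside 23.4% of all genes. The median was -0.11 (all genes 0.07) and the smallest adjusted p was 0.224, for the L4 gene AT5G02870 (log2 difference -0.63). None of the 44 had its 3 libraries all below the other 3, beside 13.3% of all genes. A half-width of 0.59 for a typical 95% interval leaves room for changes of modest size. Limma with library weights called 6 of the 44. Over all genes it called 6784 with these weights and 1667 without them.

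Averaged over the 3 backgrounds, LiCl was followed by lower levels of 18 genes and higher levels of none, 40.9% of the 44. Called genes made up 41.6% of all genes in either direction and 21.5% lower. RPSAb fell 2.12-fold (log2 difference -1.08, SE 0.19, adjusted p = 0.00021), AT4G10450 2.03-fold (adjusted p = 0.000688), RPL27AB 1.77-fold (adjusted p = 0.000161), AT4G36130 1.69-fold (adjusted p = 0.000575) and PGY1 1.64-fold (adjusted p = 0.000561). The L4 genes AT5G02870 and AT3G09630 fell by 0.69 and 0.61 on the log2 scale, and RPL10B by 0.60. The median of the 44 was -0.37 (all genes 0.01), and the called genes comprised 11 of the large subunit and 7 of the small subunit. None of the 44 had all 9 LiCl libraries below the 12 libraries without LiCl, beside 2.66% of all genes, and none had them all above, beside 2.61%.

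**Figure D3:**
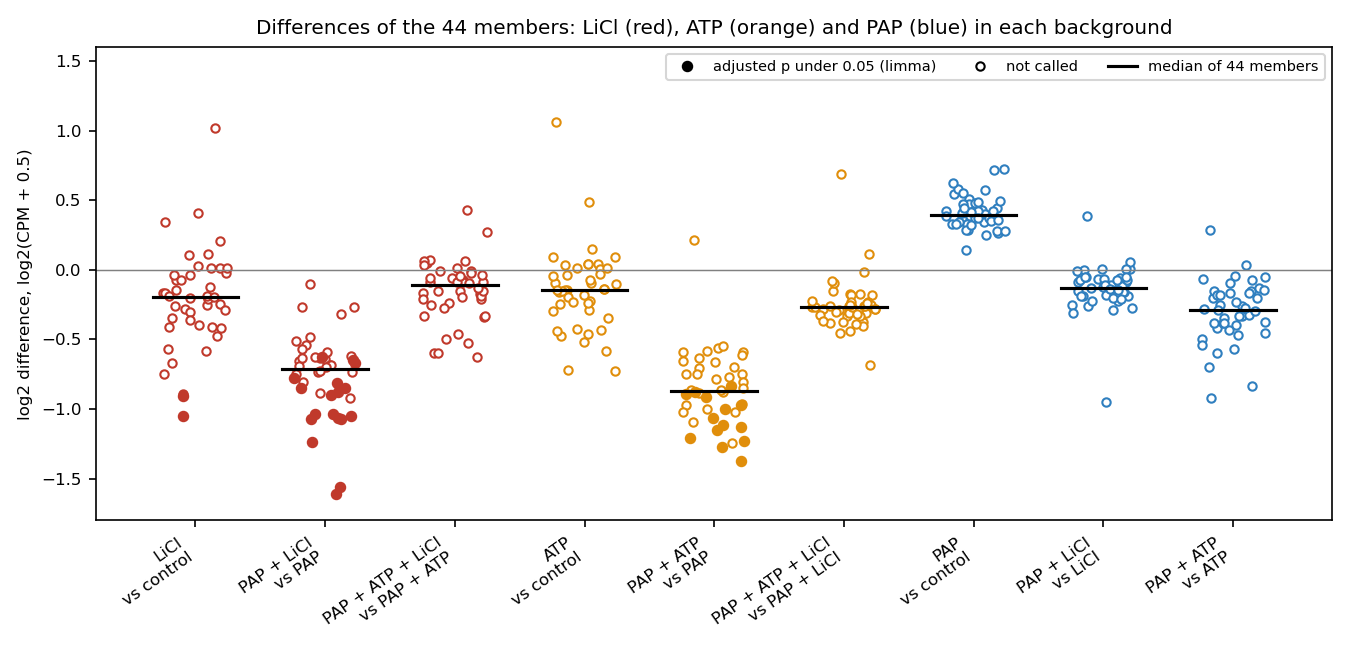
Log2 differences of the 44 genes (points, log2(CPM + 0.5) scale) in the comparisons for LiCl, ATP and PAP, with called genes as filled points and the median of the 44 as a bar. All 44 lie below 0 in PAP with LiCl against PAP and all 44 lie above 0 in PAP against control.

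ATP feeding by itself was not followed by a call in any of the 44 genes by limma, edgeR or DESeq2, while limma called 7.26% of all genes. The median of the 44 was -0.14 beside -0.16 for all genes. After median-of-ratios scaling these medians were 0.07 and 0.04, and after TMM scaling 0.02 and -0.01, so the sign depends on the scaling and no direction is given for the group. Of the 44, 3 (6.82%) had an unadjusted p under 0.05, beside 24.2% of all genes. SAG24 had the largest difference, 1.06 on the log2 scale (SE 0.44, adjusted p = 0.146), and it was the only one of the 44 with all 3 ATP libraries above the controls, beside 5.75% of all genes. AT3G11250 (-0.73), RPSAb (-0.72) and RPL23AB (-0.58), a copy of L23a, followed by p-value.

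In PAP-fed leaves, ATP was followed by lower levels of 14 genes and higher levels of none, 31.8% of the 44, beside 6.86% of all genes called in either direction and 3.43% called lower. The median was -0.87 (all genes -0.03), and 41 genes (93.2%) had an unadjusted p under 0.05, beside 25.6% of all genes. In 38 the 3 PAP with ATP libraries were all below the 3 PAP libraries, as in 12.3% of all genes. AT3G11250 had 4.18, 6.197 and 12.2 CPM in PAP with ATP, against 18.03, 23.4 and 15.1 CPM in PAP, 2.59-fold lower without overlap (adjusted p = 0.0225). Next by size were RPSAb (-1.27), AT4G10450 (-1.23), RPS6 (-1.21), RPL23AB (-1.15), RPS5B (-1.13), a copy of S5, RPL10B (-1.11) and STV1 (-1.07), a copy of L24 known for its role in re-initiation of translation. STV1 had 33.7, 47.8 and 46.3 CPM in PAP with ATP, against 80.0, 100.1 and 86.9 CPM in PAP (adjusted p = 0.0220). This count was sensitive to the libraries used. Limma called 0 of the 44 without library 7, 8, 16 or 17, 7 without library 9, and 1 without libraries 6 and 8 together. Calls over all genes fell as well, from 1212 to 263 without library 7 and to 217 without library 8. The median of the 44 was -0.98 without library 7 and -0.73 without library 8. DESeq2 called 28.

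Against PAP with LiCl, PAP with ATP and LiCl showed a median of -0.27 (all genes 0.05), and 0 genes were called by limma, edgeR and DESeq2, with 0.113% of all genes called by limma. One of the 44 (2.27%) had an unadjusted p under 0.05, beside 7.19% of all genes. Over the 3 backgrounds, ATP was followed by lower levels of 13 genes (29.5%) and higher levels of none, beside 15.1% of all genes in either direction and 9.17% lower. AT3G11250 fell 1.73-fold (log2 difference -0.79, SE 0.18, adjusted p = 0.00979). The other large falls were RPSAb (-0.75), RPS5B (-0.67), RPL23AB (-0.67), AT4G10450 (-0.67), the L3 copy RPL3B (-0.62), the S18 copy AT1G34030 (-0.52) and the S13 copy RPS13A (-0.52). Without ATP library 6 the count was 32, all lower. It was 5 without ATP library 5, 6 without library 16, 7 without library 19 and 8 without control library 1 or library 15. No share over all genes stands beside these counts, so their changes are not shown to be particular to the 44.

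Each combination was also set against buffer. PAP with ATP and LiCl called 11 genes lower (25%) and none higher, beside 19.7% of all genes in either direction and 11.1% lower, with a median of -0.64. RPSAb had 0.634, 0.990 and 2.01 CPM in PAP with ATP and LiCl, against 4.24, 3.70 and 3.28 CPM in the control, 2.61-fold lower (adjusted p = 0.00688). AT4G10450 (-1.21), AT4G36130 (-1.08), RPL10B (-1.03), RPS5B (-0.99), AT3G11250 (-0.95), RPL27AB (-0.87) and PGY1 (-0.85) followed. The count was 2 without library 1 or 19, 3 without library 20, and 17 after median-of-ratios or TMM scaling. PAP with LiCl called 3 lower, 6.82% beside 15.7% of all genes in either direction: RPSAb (-1.12), RPL27AB (-0.85) and AT4G36130 (-0.82). The count was 0 without control library 1 or library 14 or 15 and 1 without library 13, and DESeq2 called 6. PAP with ATP called 0 by limma, edgeR and DESeq2 (2.17% of all genes by limma), and 2 were called without library 18. Unadjusted p-values were under 0.05 for 13 of the 44 (29.5%), beside 19.6% of all genes. The smallest adjusted p for PAP with ATP was 0.0949, for AT3G11250 (-1.002). These comparisons share their control libraries.

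Whether 1 compound changed the effect of the other was tested as an interaction. For PAP and LiCl the median was -0.52 (all genes -0.01), for PAP and ATP -0.69 (all genes 0.17, or 0.00 after median-of-ratios scaling, with -0.87 for the 44), and all 44 values were below 0 in both. For ATP and LiCl in PAP-fed leaves the median was 0.61 (all genes 0.09), and all 44 were above 0. Without libraries 6 and 8 the medians were -0.41, -0.26 and 0.48 in the same order. These interactions share groups, so their signs are not independent of each other. None of the 44 passed by limma in any of the 3, while limma called 0%, 0% and 0.0285% of all genes in that order. Unadjusted p-values were under 0.05 for 1, 9 and 5 of the 44 (2.27%, 20.5% and 11.4%), beside 1.82%, 12.4% and 8.65% of all genes. DESeq2 called 1 of the 44 for PAP and ATP and otherwise DESeq2 and edgeR called 0. A typical half-width of the 95% interval of a single gene was 0.84.

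The copies of 1 protein can be compared within a library, where scaling to the library total drops out. For the 16 proteins with more than 1 copy among the 44, 20 log2 ratios of a less abundant to the most abundant copy were computed from CPM per kb of exon. All 3 LiCl libraries were below all 3 control libraries in 9 ratios and above them in 2. PAP with LiCl lay below PAP in 10 ratios and above it in 1, whereas PAP with ATP and LiCl lay below PAP with ATP in 1 and above it in 2. For ATP the ratios were below in 5 against control, in 3 against PAP and in 1 against PAP with LiCl. No share over other gene pairs stands beside these counts. Ratios of the L9, L10, S18 and P0 families share a denominator, and some copies, such as RPL27AB, were nearly as abundant as the other.

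The L8 pair gave the clearest separation. AT4G36130 had 14.1, 24.8 and 31.7 CPM in PAP with ATP and LiCl, 26.6, 26.3 and 27.4 CPM in PAP with LiCl and 30.3, 26.0 and 28.5 CPM in LiCl. It had 25.9, 32.4 and 35.3 CPM in PAP with ATP, 57.7, 68.1 and 46.6 CPM in PAP and 61.9, 41.7 and 41.9 CPM in the control. Its ratio to EMB2296, the major L8 copy, ran from -2.74 to -2.35 on the log2 scale in the 9 LiCl libraries and from -2.27 to -1.58 in the 12 others, with no overlap. This was the only one of the 20 ratios with such a separation, and its mean difference for LiCl was -0.59. AT4G36130 overlaps AT4G36140 on the opposite strand by 295 bp, and since the kit does not keep the strand, reads of the pair cannot be told apart there.

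**Figure D4:**
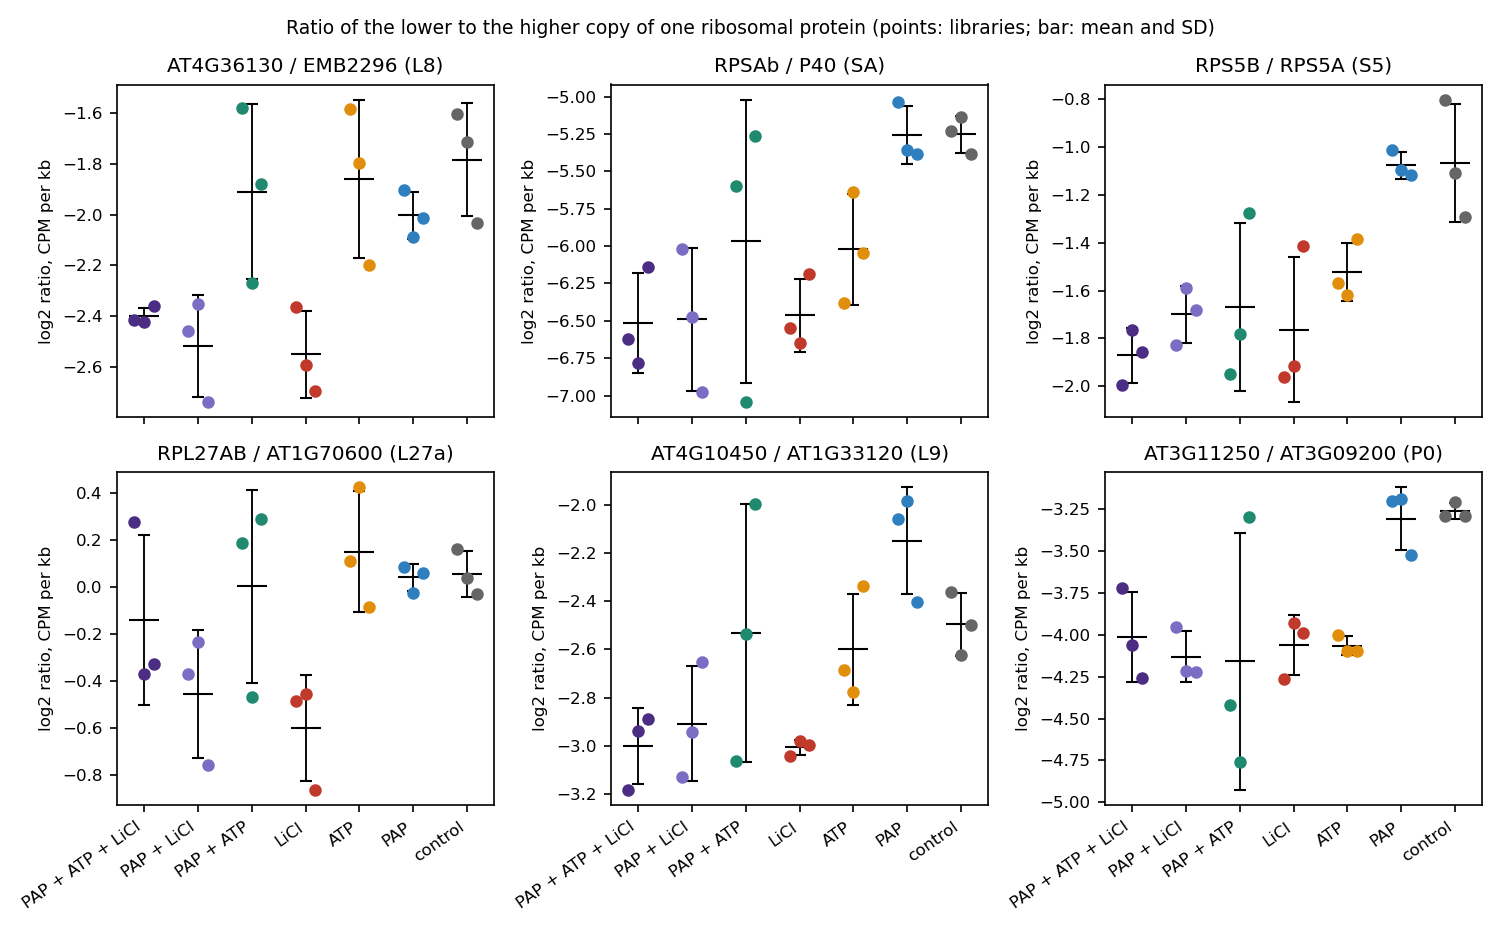
Log2 ratio of a less abundant to the most abundant copy of the same protein per kb of exon, for 6 proteins (points are libraries, bar and whiskers mean and SD of each group, n = 3). The ratio of AT4G36130 to EMB2296 lies between -2.74 and -2.35 in the LiCl libraries and between -2.27 and -1.58 in the others.

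The mean differences of other pairs had either sign. The mean LiCl difference of the ratio was -0.995 for RPSAb to P40, the major SA copy, -0.58 for AT4G10450 to AT1G33120 (L9), -0.51 for RPS5B to RPS5A (S5), -0.49 for AT3G11250 to AT3G09200 (P0), -0.43 for RPL27AB to AT1G70600 (L27a), -0.36 for RPS6 to EMB3010 (S6) and -0.36 for AT1G34030 to RPS18C (S18). For RPL3B to RPL3A (L3) it was 0.29, for RPS13A to AT3G60770 (S13) 0.24 and for AT2G40010 to AT3G09200 (P0) 0.48. The P0 ratio of AT3G11250 averaged -4.06 ± 0.18 in LiCl, -4.07 ± 0.06 in ATP and -3.26 ± 0.05 in the control (SD, n = 3 each), so it was low in both single feedings. Coding sequences of copies were 70.8% to 99.1% identical. AT1G33120 and PGY2 (L9) share a run of 458 of their 585 coding bases, so reads could not be well assigned between these 2, and the values of each are uncertain. RPL27AB overlaps AT1G23300 on the opposite strand by 801 bp, nearly its whole length of 815 bp, and AT2G40010 overlaps a long non-coding RNA by 1185 bp. RPSAb overlaps AT3G04780 on the same strand by 132 bp. AT3G04780 averaged 26.4 CPM, while RPSAb averaged 1.21 CPM in PAP with ATP and LiCl and 5.41 CPM in PAP. How reads in that stretch were assigned is not known, so all RPSAb values above carry this limit. In all, 13 of the 44 overlap another annotated gene. AT3G09200, the denominator of the P0 ratios, overlaps PTAC13 (mean 40.9 CPM) on the same strand by 100 bp. P40 overlaps ERF73 on the opposite strand by 124 bp. AT4G29410 overlaps snoRNA genes on its own strand and AT4G29400 on the opposite strand by 63 bp.

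The L10 family held the gene with the most unlike pattern, SAG24, which in the pooled ATP comparison was the only one of the 44 with a difference above 0 (log2 difference 0.65, adjusted p = 0.0862). SAG24 had 636, 241 and 259 CPM in PAP with ATP and LiCl, 163, 232 and 253 CPM in PAP with LiCl, 517, 432 and 250.4 CPM in PAP with ATP and 295, 125 and 116 CPM in LiCl. It had 338, 573 and 377 CPM in ATP, 269, 261 and 512 CPM in PAP and 307, 175 and 149 CPM in the control. Its highest value of all was in library 19, where 43 of the 44 genes were at their lowest within the group. SAC52, which shares 88.2% of its coding bases, had 117, 155 and 189 CPM in PAP with ATP and LiCl, 170.3, 151 and 183 CPM in PAP with LiCl and 139.9, 192 and 148 CPM in PAP with ATP. It had 197, 162 and 194 CPM in LiCl, 179, 182 and 294 CPM in ATP, 235, 305 and 241 CPM in PAP and 219, 186 and 195 CPM in the control. SAG24 thus spread widely within groups, and its differences passed the threshold of limma in no comparison with all libraries. In the pooled ATP comparison it was called higher by DESeq2 (log2 difference 0.76, adjusted p = 0.0356) and by limma without library 18 (log2 difference 0.75, adjusted p = 0.0474), and edgeR did not call it. RPL10B, the third copy, averaged 2.64 CPM in PAP with ATP and LiCl and 5.70 CPM in the control.

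**Figure D5:**
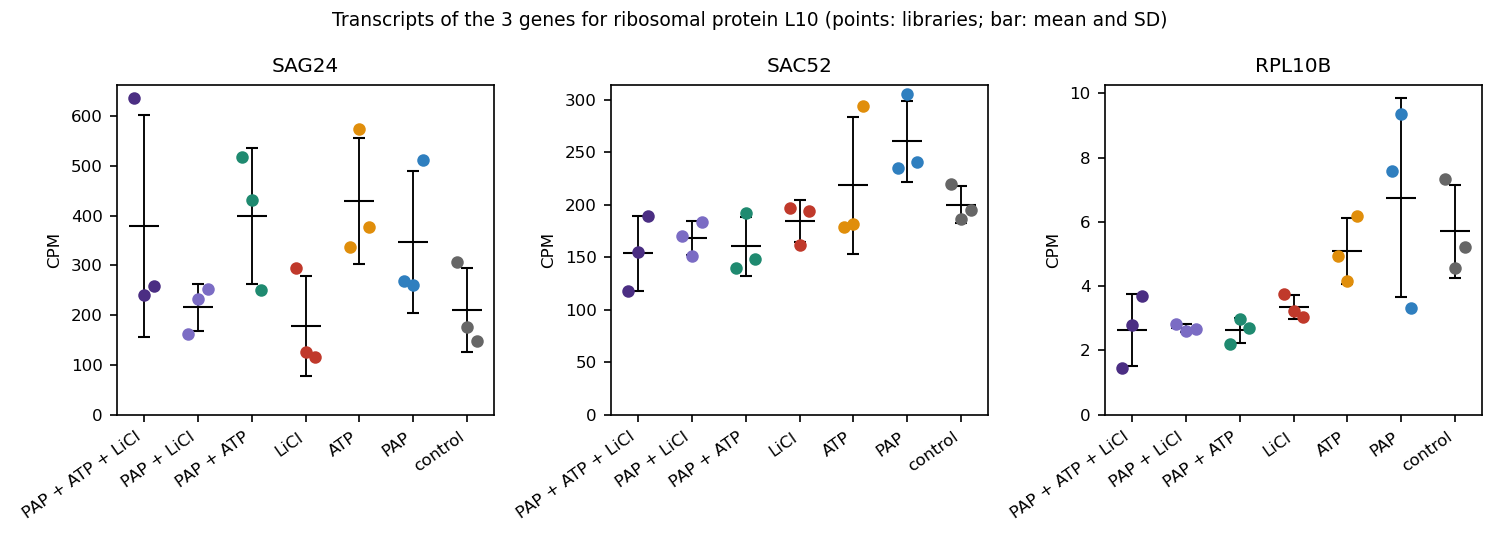
Level of the 3 copies of L10 in each library (CPM; points are libraries, bar and whiskers mean and SD of each group, n = 3). SAG24 reaches 636 CPM in PAP with ATP and LiCl library 19, while SAC52 has its lowest value, 117 CPM, in the same library.

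The upstream regions of copies that differed are shown for the L10, L8 and L27a families, 250 bases before each annotated start from TAIR10.1 (RefSeq). Capitals mark the site II core TGGGCC and the telo box AAACCCTA, searched on both strands, with each printed as read on the gene's own strand. SAG24 lies at chr1:24838840-24839089 (plus strand), SAC52 at chr1:4887864-4888113 (plus), AT4G36130 at chr4:17097155-17097404 (plus), EMB2296 at chr2:7836817-7837066 (plus), RPL27AB at chr1:8262675-8262924 (plus) and AT1G70600 at chr1:26621780-26622029 (minus). Part of the window belongs to a gene on the opposite strand for SAC52 (70 bases), AT4G36130 (147), RPL27AB (121) and AT1G70600 (131).
SAG24 (L10): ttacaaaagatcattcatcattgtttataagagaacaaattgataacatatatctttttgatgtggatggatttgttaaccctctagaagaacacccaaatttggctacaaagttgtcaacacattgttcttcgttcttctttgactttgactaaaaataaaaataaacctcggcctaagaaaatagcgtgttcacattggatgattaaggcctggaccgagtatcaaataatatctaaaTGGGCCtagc
SAC52 (L10): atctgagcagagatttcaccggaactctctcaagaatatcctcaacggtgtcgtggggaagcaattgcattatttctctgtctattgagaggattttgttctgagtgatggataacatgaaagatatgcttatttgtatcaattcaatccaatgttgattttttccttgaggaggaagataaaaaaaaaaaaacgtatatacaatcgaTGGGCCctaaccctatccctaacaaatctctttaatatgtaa
AT4G36130 (L8): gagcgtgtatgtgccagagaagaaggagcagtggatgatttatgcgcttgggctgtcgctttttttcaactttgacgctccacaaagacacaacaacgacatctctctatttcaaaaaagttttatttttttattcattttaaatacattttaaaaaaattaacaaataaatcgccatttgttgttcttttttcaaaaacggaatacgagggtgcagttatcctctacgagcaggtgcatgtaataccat
EMB2296 (L8): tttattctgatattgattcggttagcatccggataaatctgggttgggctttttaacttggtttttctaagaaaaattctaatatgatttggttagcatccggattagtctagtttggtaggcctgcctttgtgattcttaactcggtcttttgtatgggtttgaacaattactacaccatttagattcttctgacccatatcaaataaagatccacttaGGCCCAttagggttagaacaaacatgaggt
RPL27AB (L27a): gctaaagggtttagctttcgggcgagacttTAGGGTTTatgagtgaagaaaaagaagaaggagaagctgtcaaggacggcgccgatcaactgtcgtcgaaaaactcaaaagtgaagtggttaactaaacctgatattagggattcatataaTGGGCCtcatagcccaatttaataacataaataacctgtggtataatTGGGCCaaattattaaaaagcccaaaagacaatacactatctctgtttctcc
AT1G70600 (L27a): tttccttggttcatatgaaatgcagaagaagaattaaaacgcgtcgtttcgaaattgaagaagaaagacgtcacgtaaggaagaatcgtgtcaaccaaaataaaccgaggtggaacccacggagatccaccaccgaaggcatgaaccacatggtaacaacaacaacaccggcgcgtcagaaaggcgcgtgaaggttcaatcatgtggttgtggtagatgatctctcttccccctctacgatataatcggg
Both L10 copies hold 1 site II core. In the L8 pair only the major copy EMB2296 holds one, and in the L27a pair only RPL27AB does, with 2 site II cores and 1 telo box. The copy whose ratio was lower under LiCl thus held no exact match in the L8 pair and 3 in the L27a pair. Only the letters given above were searched, and other forms of these elements were not.

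Over all 44 upstream windows, 23 (52.3%) held a site II core, 6 (13.6%) a telo box and 2 (4.55%), RPL27AB and RPL16A, held both, and 17 held neither. Among the 63 other cytosolic ribosomal protein genes, 37 (58.7%) held a site II core and 13 (20.6%) a telo box. In all 27443 nuclear protein-coding genes the shares were 13.7%, 4.49% and 0.984% for site II core, telo box and both. Of the 18 genes called lower in the pooled LiCl comparison, 10 held a site II core, 1 a telo box and 8 neither, and of the other 26 genes, 13, 5 and 9. A match is a description of the sequence, and it says nothing of binding.

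The 63 other ribosomal protein genes picked by product name gave like values. Of 60 tested in the pooled LiCl comparison, 23 were lower and 1 higher (median -0.28), in PAP with LiCl against PAP 25 were lower and 2 higher (median -0.66), in PAP with ATP against PAP 31 were lower and 0 higher (median -0.94), and in the pooled ATP comparison 27 were lower and 0 higher (median -0.49). The shares called lower were 38.3%, 41.7%, 51.7% and 45% in that order, beside 21.5%, 12%, 3.43% and 9.17% of all genes. Genes for the plastid ribosome, 28 tested, had medians of 0.17, -0.07, -0.76 and -0.28 in the same 4 comparisons, and 0 were called by limma, edgeR or DESeq2 in any of them. Their unadjusted p-values by limma were under 0.05 for 0, 0, 16 and 1 genes in the same order. Of all genes, 49.8%, 34.5%, 25.6% and 31.4% had such p-values in the pooled LiCl, PAP with LiCl against PAP, PAP with ATP against PAP and pooled ATP comparisons. Ribosome biogenesis factors, 24 tested, were lower for 18 (75%) in the pooled LiCl comparison (median -0.82) and 16 (66.7%) in the pooled ATP comparison (median -0.71), and higher for none, beside 21.5% and 9.17% of all genes called lower. SWA1, a nucleolar processing factor, fell by 1.82 on the log2 scale with LiCl (adjusted p = 4.10e-06), AT3G15460, a Brix-domain protein, by 1.30, RID2, an rRNA methyltransferase related to yeast Bud23, by 1.17, and NUC-L1, a nucleolin, by 0.93.

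Among 17 genes of the TOR pathway and ribosome regulators, 6 were higher and 4 lower in the pooled LiCl comparison, 58.8% beside 41.6% of all genes called. The higher genes were AT5G63190, a translation regulator with MA3 domains (1.24), RAPTOR2 (1.18) and RAPTOR1 (0.57), subunits of the TOR complex, TCP20 (1.12), a TCP factor that binds site II elements, S6K2 (1.05), an S6 kinase, and GCN2 (0.56), a kinase of the initiation factor eIF2. FZF (-0.74) and AT4G31420 (-0.44), zinc finger proteins related to a yeast factor of large-subunit maturation, were lower. Also lower were AT5G13240 (-0.47), related to the polymerase III repressor MAF1, and AT3G51800 (-0.49), a metallopeptidase M24 family protein listed under the symbol ATG2. In the pooled ATP comparison 5 of the 17 were called, 29.4% beside 15.1% of all genes: the S6 kinase PK1 (0.43), AT5G63190 (0.79), YAK1 (0.51), a kinase acting downstream of TOR, and RAPTOR1 (0.64) were higher, and AT3G51800 (-0.48) was lower. The list therefore held genes that moved both ways, with a median of -0.07 for LiCl and 0.22 for ATP.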

How the data were processed

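Libraries of polyA RNA were made with an unstranded kit, per the labels' protocols. Subread, featureCounts and TAIR10 are named in the submitters' processing notes, without versions or options. The deposited table gives CPM, in the unit per the labels, for 21156 loci, and its columns name the group but not the replicate. In every column all values were whole multiples of 1 read, or 100% within a tolerance of 0.001 reads, which gave the library totals. A gene without a value in 1 library had none in the whole group.

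Groups were compared with limma 3.58.1 in R 4.3.3 on log2(CPM + 0.5), after a filter of at least 1 CPM in 3 or more libraries that 17794 genes passed, 354 of them without values in some group. All 21 libraries shared 1 estimate of the spread, the prior variance followed the mean, tests were two-sided with Benjamini-Hochberg adjustment over every gene tested in the comparison, and a gene was called at an adjusted p under 0.05. Fold changes are on the log2(CPM + 0.5) scale, which understates the change of low genes. A pooled comparison averages the differences in 3 backgrounds. The recovered reads were also tested with edgeR 4.0.16 and DESeq2 1.42.0, and other scalings, filters, pseudocounts, library weights and left-out libraries were tried. On simulated data with 17440 genes, the LiCl against control fit recovered 1.49%, 17.9% and 59.1% of genes changed 1.5-fold, 2-fold and 4-fold, and the pooled LiCl fit 22.4%, 67.2% and 98.5%. Only 67, 67 and 66 genes were changed in the simulation, in that order of fold. In the real LiCl against control comparison limma called 17.6% of all genes, so the recovered shares need not hold for the real data.

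Names, products, positions, upstream windows and coding sequences came from TAIR10.1 and were handled with Biopython 1.88 in Python 3.11.15. The genes and lists described, and the rule for naming genes, were chosen with earlier results of these data known. In each comparison the rule named up to 8 rises and 8 falls among called genes, or the 4 smallest p-values where none was called. It also named all copies of a protein with several copies, the 5 highest and 5 lowest levels in control, the 4 smallest p-values of each other list in the pooled comparisons, and every called gene of the TOR list.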

Additional observations from a re-analysis of the deposited data

Results flagged for a closer look

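RPS5A (AT3G11940), the major copy of the small-subunit protein S5, was the only one of the 44 genes in which all libraries of one background moved up with LiCl and all libraries of another moved down. It had 131, 104 and 96.5 CPM in LiCl leaves, against 85.8, 80.7 and 92.9 CPM in control leaves, a log2 difference of 0.34. It had 95.7, 82.8 and 97.3 CPM in PAP with LiCl leaves, against 103, 129 and 101 CPM in PAP leaves, a log2 difference of -0.27. The test of the difference itself, the interaction of PAP and LiCl, gave -0.61 on the log2 scale (SE 0.36) with an adjusted p of 0.9998 by limma, which did not pass. Of all genes, 14.1% had all 3 LiCl libraries above the controls, and 21.7% had all 3 PAP with LiCl libraries below PAP. The share of all genes with both was not computed, so 1 such gene among the 44 is not shown to be unusual.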

How the results depend on the processing

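No paired analysis was possible because the columns of the table carry no replicate numbers. Counts are of the 44 genes called, and those below for a comparison of groups were lower in the first-named one, except SAG24, called higher for pooled ATP by DESeq2 and without library 18. For LiCl against control (2 called) the count was 1 with a mean CPM of at least 5, 5 with library weights, 0 with only the groups compared and 5 by DESeq2. It was 11 for PAP with LiCl against PAP (18 called) without ATP library 6 and PAP library 8, an alternative chosen after seeing the data. For PAP with ATP against PAP (14 called) it was 4 with library weights, 0 with only the groups compared, 28 by DESeq2 and 1 without those 2 libraries. Over all genes the main fit called 1212 there, library weights 723, only the groups compared 6 and DESeq2 2536. Library weights gave 24 for pooled ATP (13 called), and, where 0 were called, 6 for PAP with ATP and LiCl against PAP with ATP, 3 for ATP against control, 1 for PAP with ATP against ATP and 1 for PAP with ATP against control. Over all genes, weights raised the calls from 1667 to 6784 for PAP with ATP and LiCl against PAP with ATP. For ATP against control they raised them from 1283 to 2988. For PAP with LiCl against control (3 called) the count was 1 with only the groups compared and 6 by DESeq2, and for PAP with ATP and LiCl against control (11 called) 17 by median-of-ratios, 17 by TMM, 3 with only the groups compared and 18 by DESeq2. DESeq2 called 1 for the interaction of PAP and ATP (0 called) and 30 in the F test (19 called).

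Leaving out 1 library at a time gave 0 to 2 for LiCl against control, 7 to 12 for PAP with LiCl against PAP, 13 to 22 for pooled LiCl, 0 to 13 for PAP with ATP against PAP, 5 to 32 for pooled ATP, 0 to 3 for PAP with LiCl against control, 0 to 2 for PAP with ATP against control, 2 to 15 for PAP with ATP and LiCl against control and 10 to 23 for the F test. The other counts were 0 throughout. Calls over all genes changed as well, as from 1283 to 286 for ATP against control without ATP library 5. In PAP with ATP against PAP they went from 1212 to 217 without PAP library 8. A change in a count of the 44 is therefore not shown to be particular to these genes. Pseudocounts of 0.1 and 2, no filter on low values, edgeR and a prior variance without a trend, the last added after seeing the data, left every count within 1.5 times. Of 1230 values of named genes with 1 library left out, 969 kept their direction and side of the threshold, 260 no longer passed, 1 newly passed and 0 changed sign while called. With 3 libraries a group, changes under 2-fold could be missed in a single comparison, although some were called, such as that of RPL27AB in LiCl against control.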

Other observations

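Genes for translation factors were measured beside those of the ribosome itself. Of 24 tested, 2 were higher and 6 lower in the pooled LiCl comparison (median -0.20), and 2 were lower in the pooled ATP comparison (median -0.17). These shares, 33.3% and 8.33%, were below the 41.6% and 15.1% of all genes called. With LiCl, EIF4A-2, an RNA helicase of initiation, fell by 0.77 on the log2 scale, EIF4E, which binds the mRNA cap, by 0.67, and eIF6A, a factor that keeps the large subunit from joining too early, by 0.62, while the poly(A)-binding protein gene PAB2 rose by 0.38. With ATP, EIF2 ALPHA, the initiation factor subunit phosphorylated by GCN2, fell by 0.70 and EIF4E by 0.41. In the pooled ATP comparison, the biogenesis factors AT5G60990 (-0.70), IMP4 (-0.90), NAP57 (-1.16), the pseudouridine synthase of the nucleolus, and SWA1 (-0.91) were lower. The difference between these lists and the ribosomal protein genes was not tested.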
